A study of Mus musculus with 128 samples.

Results

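The change in gene expression between the 2-cell and the 4-cell stage was compared between mouse embryos with and without the histone demethylase gene Kdm4a, in 64 of the 128 single-embryo libraries of the study. The groups were 2-cell wildtype (2c-wt), 2-cell knockout (2c-ko), 4-cell wildtype (4c-wt) and 4-cell knockout (4c-ko), with 16 embryos in each. For every gene the change in knockout embryos, 4c-ko against 2c-ko, was set against the change in wildtype embryos, 4c-wt against 2c-wt, and genes were then divided by the direction of their wildtype change. This difference of differences is called the interaction below and is given as a log2 fold change: a positive value means that a gene fell less, or rose more, in knockout embryos. Of 41300 genes counted, 10766 had enough reads to be tested, and 1665 of them carried an interaction with an adjusted p under 0.05.

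All embryos were C57BL/6 and all were fertilised with sperm of Kdm4a knockout males, so that the wildtype embryos (m+/p-) carried a maternal copy alone and the knockout embryos (m-/p-) had no functional copy from either parent. The 2-cell embryos were taken at 1.5 and the 4-cell embryos at 2.5 days post fertilization, when control embryos had reached the stage. Whether knockout embryos had reached the same point of the cell cycle at that time and the effect of genotype cannot be told apart here. Each library came from 1 zona-free embryo amplified with a SMART-Seq kit; the mothers are not named, so p-values reflect variation among embryos, some of which may share a mother.

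The mouse embryo begins development on messenger RNA stored in the oocyte. Most of that RNA is degraded while the embryonic genome is switched on, in a minor wave before the first cleavage and a major wave at the 2-cell stage, after which genes of the translation and energy machinery are transcribed at high rates. Kdm4a removes methyl groups from lysines 9 and 36 of histone H3, and its maternal product is known to be needed for normal preimplantation development.

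Totals ranged from 1756614 to 2916460 counts in 2c-wt, from 528377 to 3434766 in 2c-ko, from 1691764 to 2563727 in 4c-wt and from 1455238 to 2671024 in 4c-ko. Of 8 embryo and oocyte markers, Zscan4c, Zscan4d, Gdf9, Nlrp5, Ooep and Pou5f1 had lower means at the 4-cell than at the 2-cell stage in both genotypes. Zscan4d, a gene of the transient 2-cell programme, averaged 587 CPM (counts scaled to a common library total) in 2c-wt and 2.89 CPM in 4c-wt. Dppa3 was lower at the 4-cell stage by less, with 7785 and 7654 CPM in wildtype and 8483 and 6206 CPM in knockout embryos. Only Zp3, a zona pellucida gene, had higher 4-cell means, with 7.51 and 10.99 CPM in wildtype and 6.12 and 16.7 CPM in knockout embryos. The mitochondrially encoded share of counts averaged 4.05% in 2c-wt and 3.05% in 2c-ko (adjusted permutation p = 0.0284), and 8.79% and 9.23% at the 4-cell stage (adjusted permutation p = 0.552). Genes detected at equal depth averaged 8742 and 8391 at the 2-cell stage (adjusted permutation p = 0.0284) and 7208 and 7340 at the 4-cell stage (adjusted permutation p = 0.4). Summed cumulus and granulosa cell markers spanned 87.7 to 271 CPM in 2c-wt and 72.9 to 212 CPM in 2c-ko, then 1.69 to 53.8 CPM in 4c-wt and 9.45 to 59.8 CPM in 4c-ko, so the genotypes overlapped at both stages. Outside these 4 groups, 2 libraries used below for comparison stood apart from their labels. In 8-cell knockout replicate 7 the genes that fell in wildtype held 62.4% of the counts, against 7.82% to 9.49% in the other 14 libraries of its group that were used. In knockout oocyte replicate 15 the genes that rose in wildtype held 6.75%, against 11.3% to 12.2% in its group. Results at those stages are therefore given with and without these libraries.

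Kdm4a itself (ENSMUSG00000033326.15; mm10 chromosome 4, minus strand, 118136957 to 118180043) was lower in knockout embryos at both stages. It measured 5.09 to 22.6 CPM in 2c-wt with a median of 16.5, and 0 to 6.02 CPM in 2c-ko with a median of 2.26. In 4c-wt it measured 0 to 11.1 CPM with a median of 3.36, and in 4c-ko 0 to 4.71 CPM with a median of 1.36. The groups overlapped at both stages, and every 2c-ko embryo lay below the 2c-wt median. The means differed by a 2-sided permutation test, with 15.1 ± 4.81 against 2.65 ± 1.83 CPM (SD, n = 16) at the 2-cell stage (p = 2e-05, the smallest these permutations can give) and 4.59 ± 3.58 against 1.76 ± 1.47 CPM at the 4-cell stage (p = 0.00652). Its wildtype level fell from the 2-cell to the 4-cell stage, and its own interaction of 1.07 (SE 0.59) did not pass the threshold (adjusted p = 0.216).

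Most of the transition was shared between genotypes. In wildtype embryos 4725 genes (43.9% of those tested) fell and 3283 (30.5%) rose by at least 1 on the log2 scale at an adjusted p under 0.05. In knockout embryos 4562 genes (42.4%) fell and 3515 (32.6%) rose. Of these, 4297 fell in both genotypes and 2969 rose in both, and the changes of both genotypes, which share no library, correlated across the 10766 genes with Pearson's r = 0.957, a description over genes that are not independent replicates. The interaction was called above 0, at an adjusted p under 0.05, for 1231 genes (11.4%) and called below 0 for 434 (4.03%). Values are relative to each library's total, so the median of all genes is the point of reference: it was 0.20, and 60.6% of tested genes had a positive interaction, called or not; the median was 0.13 with relative log expression factors and 0.24 with total counts alone. With replicates 1 to 8 alone 401 genes were called above and 236 below 0, and with replicates 9 to 16 alone 284 and 45. Because CPM is relative, less RNA per embryo and a lower share of RNA cannot be told apart.

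**Figure D1:**
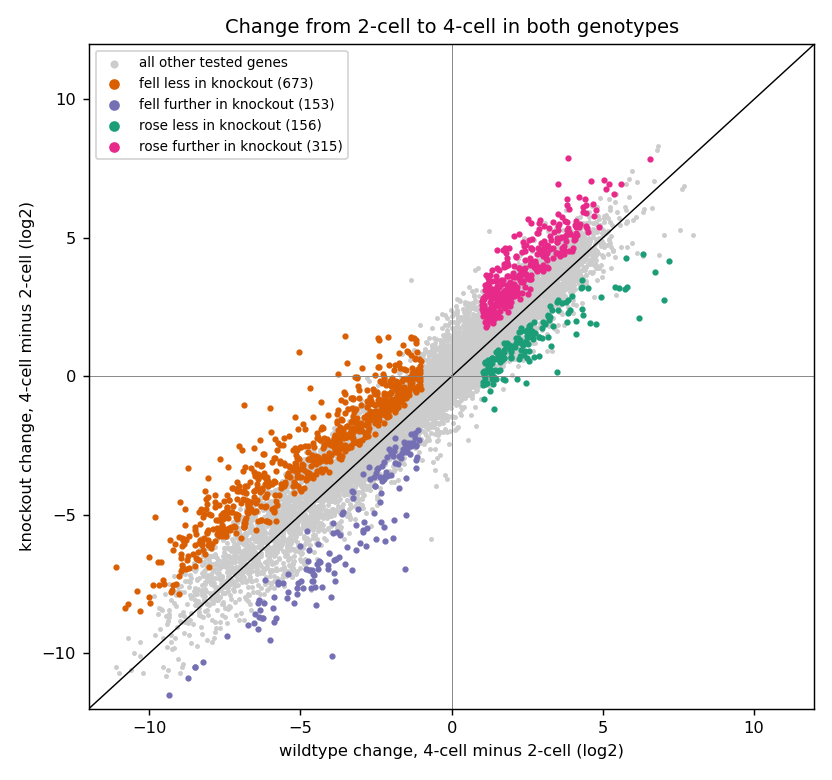
Log2 fold change from the 2-cell to the 4-cell stage in wildtype embryos (horizontal axis) against the same change in knockout embryos (vertical axis), 1 point per tested gene. Colour marks called genes that fell less, fell further, rose less or rose further in knockout embryos. All other tested genes are grey, among them the called genes without a large wildtype change. Points lie along the diagonal (r = 0.957), and called genes above it (1231) outnumber those below it (434), grey ones included.

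By wildtype direction, the largest group was of genes that fell less in knockout embryos, with 673 genes. A further 153 fell further, 156 rose less and 315 rose further. The other 368 called genes had no called wildtype change of that size, 243 of them with a positive and 125 with a negative interaction. The wildtype libraries enter both the wildtype change and the interaction, so the direction of one bears on the other. When fallers were defined in the odd-numbered wildtype embryos and the interaction was measured with the even-numbered ones, 9.74% of 3561 fallers were called above 0, against 7.60% of all genes tested, and their median interaction was 0.38 against 0.23. With the roles exchanged, 6.26% of 3612 fallers were called above 0, against 3.66% of all genes, with medians of 0.31 and 0.15. Risers were nearer to the background in both splits, with 8.70% and 2.70% called above 0 and medians of 0.18 and 0.05.

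The promoters of 3 genes named below are shown, 1 each from 3 of these groups: Naa30 fell less, Fubp1 rose less and Hmgb1 rose further. Each is 300 bases long, from 250 bases before to 50 after the annotated start, from RefSeq on GRCm38.p6. Capitals mark matches on either strand to CCGGAAG, the ETS-type motif, to GGGCGG, the GC box, and to CCAAT, the CCAAT box. The Naa30 window (chr14:49171996-49172295, plus strand) holds an ETS-type match and a GC box, the Fubp1 window (chr3:152210172-152210471, plus strand) GC boxes on both strands and a CCAAT box, and the first of the annotated Hmgb1 starts (chr5:149053008-149053307, minus strand) 3 CCAAT boxes. The window of the other annotated Hmgb1 start (chr5:149051567-149051866), not shown, holds GC boxes, an ETS-type match and no CCAAT box.
Naa30: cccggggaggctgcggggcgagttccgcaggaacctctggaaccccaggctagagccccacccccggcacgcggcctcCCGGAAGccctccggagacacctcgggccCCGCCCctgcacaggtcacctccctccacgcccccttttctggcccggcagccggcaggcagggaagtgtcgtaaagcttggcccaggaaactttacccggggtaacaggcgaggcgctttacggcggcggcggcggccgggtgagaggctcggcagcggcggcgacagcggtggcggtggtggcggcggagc
Fubp1: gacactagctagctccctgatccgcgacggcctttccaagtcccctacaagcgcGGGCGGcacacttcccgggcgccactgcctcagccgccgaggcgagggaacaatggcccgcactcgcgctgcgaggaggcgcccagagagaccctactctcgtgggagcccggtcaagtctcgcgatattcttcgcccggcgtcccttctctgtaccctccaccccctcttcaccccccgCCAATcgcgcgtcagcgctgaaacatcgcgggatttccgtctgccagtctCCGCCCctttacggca
Hmgb1: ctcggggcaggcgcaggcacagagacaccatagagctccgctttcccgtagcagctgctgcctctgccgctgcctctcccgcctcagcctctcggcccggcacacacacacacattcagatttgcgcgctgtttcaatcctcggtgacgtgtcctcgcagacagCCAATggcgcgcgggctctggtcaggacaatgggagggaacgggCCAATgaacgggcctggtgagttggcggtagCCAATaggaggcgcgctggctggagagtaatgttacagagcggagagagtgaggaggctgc
Of 32851 mouse promoters of this length, 37.4% hold CCAAT, 35.7% GGGCGG and 8.86% CCGGAAG on either strand. Of the 8937 promoters listed for tested genes, 38.9%, 60.1% and 18.6% do. A match describes letters in the window, not a bound site.

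The 673 genes that fell less declined by a median of 4.42 log2 units in wildtype and of 2.57 in knockout embryos. In knockout embryos 512 of them still passed the test for a fall, 153 passed in neither direction and 8 rose. Their median level was 41.7 CPM in 2c-wt and 35.5 CPM in 2c-ko, and 3.06 CPM in 4c-wt and 9.11 CPM in 4c-ko. The difference lay mainly at the 4-cell stage: 600 of the 673 differed between genotypes in the 4-cell comparison alone, 31 at the 2-cell stage alone, 11 at both in opposite directions and 31 at neither. The interaction is the 4-cell genotype difference minus the 2-cell one, from the same libraries. Such counts, here and for the groups below, therefore describe where a called difference lies and are no separate test. Over all tested genes 1495 (13.9%) were higher and 708 (6.58%) lower in 4c-ko than in 4c-wt, and 201 (1.87%) were higher and 758 (7.04%) lower in 2c-ko than in 2c-wt. For 446 of the 673 (66.3%), the wildtype oocyte level was at least 0.5 times the 2-cell level, against 61.3% of all wildtype fallers and 52.8% of all genes tested.

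Naa30, the catalytic subunit of an N-terminal acetyltransferase, illustrates the pattern. It measured 460.2 to 818 CPM in 2c-wt with a median of 574, and 244 to 748 CPM in 2c-ko with a median of 424. In 4c-wt it measured 11.4 to 81.3 CPM with a median of 37.5, and in 4c-ko 59.3 to 184 CPM with a median of 119. Every 4c-ko embryo was above the 4c-wt median, although the ranges overlapped. The order of 2c-wt and 2c-ko depended on the subset of replicates. In replicates 1 to 8 Naa30 was at 567 to 818 CPM in 2c-wt and 244 to 424.5 CPM in 2c-ko, without overlap. In replicates 9 to 16 it was at 460.2 to 600.3 CPM in 2c-wt and 423.5 to 748 CPM in 2c-ko. There most 2c-ko embryos lay above most 2c-wt embryos. The cause was not tested. The gene fell by 4.12 log2 units in wildtype and by 2.37 in knockout embryos, an interaction of 1.75 (SE 0.23, adjusted p = 5.46e-07).

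Cul1, the scaffold of SCF ubiquitin ligases, was among the most abundant of the group. Its levels were 2322 to 3646 CPM (median 3146) in 2c-wt and 2256 to 3755 CPM (median 3252) in 2c-ko. At the 4-cell stage they were 67.1 to 347 CPM (median 182) in wildtype and 309 to 734 CPM (median 487) in knockout embryos. The genotypes thus overlapped almost fully at the 2-cell stage, and all 16 4c-ko embryos exceeded the 4c-wt median, with an interaction of 1.27 (SE 0.19, adjusted p = 3.66e-06). Ccdc6, a coiled-coil protein known as a fusion partner in thyroid tumours, behaved alike, with medians of 107 CPM in 4c-wt and 312 CPM in 4c-ko and an interaction of 1.55 (adjusted p = 1.18e-06). Ube2d2a, a ubiquitin-conjugating enzyme, had medians of 125 and 251 CPM at the 4-cell stage and an interaction of 1.13 (adjusted p = 9.05e-07). Of its non-zero library values 67.2% were not whole, a sign of reads shared with other loci. Here and below such a percentage counts library values, not reads, and a single shared read can make a value not whole.

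Arid2, a subunit of the PBAF form of the SWI/SNF remodeller, kept more of its level in knockout embryos. It measured 38.4 to 176 CPM (median 81.5) in 2c-wt, 34.1 to 106 CPM (median 70.2) in 2c-ko, 3.12 to 43.4 CPM (median 8.66) in 4c-wt and 24.3 to 104 CPM (median 44.1) in 4c-ko. The 4-cell ranges overlapped and every 4c-ko embryo was above the 4c-wt median. In replicates 1 to 8 Arid2 was at 78.2 to 176 CPM in 2c-wt and 34.1 to 106 CPM in 2c-ko. In replicates 9 to 16 it was at 38.4 to 85.6 CPM in 2c-wt and 67.5 to 101.6 CPM in 2c-ko. There most 2c-ko embryos lay above most 2c-wt embryos, as for Naa30. Its wildtype fall was 3.05 log2 units and its knockout change -0.78, which is below the size set for a call, and the interaction was 2.27 (SE 0.35, adjusted p = 5.37e-06).

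Some oocyte-specific transcripts were also among the genes that fell less. Nlrp9c, an oocyte member of the NLRP family, had medians of 2707 and 2694 CPM in 2c-wt and 2c-ko and of 27.1 and 73.0 CPM in 4c-wt and 4c-ko, an interaction of 1.42 (SE 0.27, adjusted p = 0.000162). Oosp3, an oocyte-secreted protein, had medians of 4.07 CPM in 4c-wt and 19.2 CPM in 4c-ko after at least 2569 CPM in every 2c-wt and 2151 CPM in every 2c-ko embryo, with an interaction of 1.93 (SE 0.49, adjusted p = 0.00459). Hesx1, a homeobox transcription factor, fell by 3.75 log2 units in wildtype embryos, and its knockout change was 0.09. In that gene the genotypes already differed at the 2-cell stage, with medians of 23.9 CPM in 2c-wt and 4.36 CPM in 2c-ko, and then stood in the opposite order at 2.88 and 8.17 CPM. Themis, Serpinb3a and Olfr450 had no count in any 4c-wt embryo, so the size of their fitted interaction depends on the prior count. Themis, a T cell signalling protein, was listed above 0 in 3 of 16 4c-ko embryos, at up to 3.63 CPM, and its 2-cell ranges did not overlap, with 9.74 to 35.0 CPM in 2c-wt and 0.469 to 7.86 CPM in 2c-ko. Themis and Serpinb3a were already lower in knockout oocytes. Without replicate 15 the differences were -1.755 (adjusted p = 2.06e-07) and -1.915 (adjusted p = 5.58e-12), and with it -1.78 and -1.98.

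Summed over the 673 genes, which were chosen on these libraries, the share of counts was 17.3 ± 0.724% (SD, n = 16) in 2c-wt and 16.9 ± 0.654% in 2c-ko. At the 4-cell stage it was 1.05% to 1.77% in wildtype and 2.22% to 3.21% in knockout embryos, with means of 1.31 ± 0.221% and 2.62 ± 0.326%. The 4-cell ranges did not overlap; as the genes were selected for this difference, no test applies. All 4725 wildtype fallers together, which the interaction did not choose, held 6.39% to 11.6% in 4c-wt and 8.14% to 11.5% in 4c-ko, with means of 7.81% and 9.66% and overlapping ranges.

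**Figure D2:**
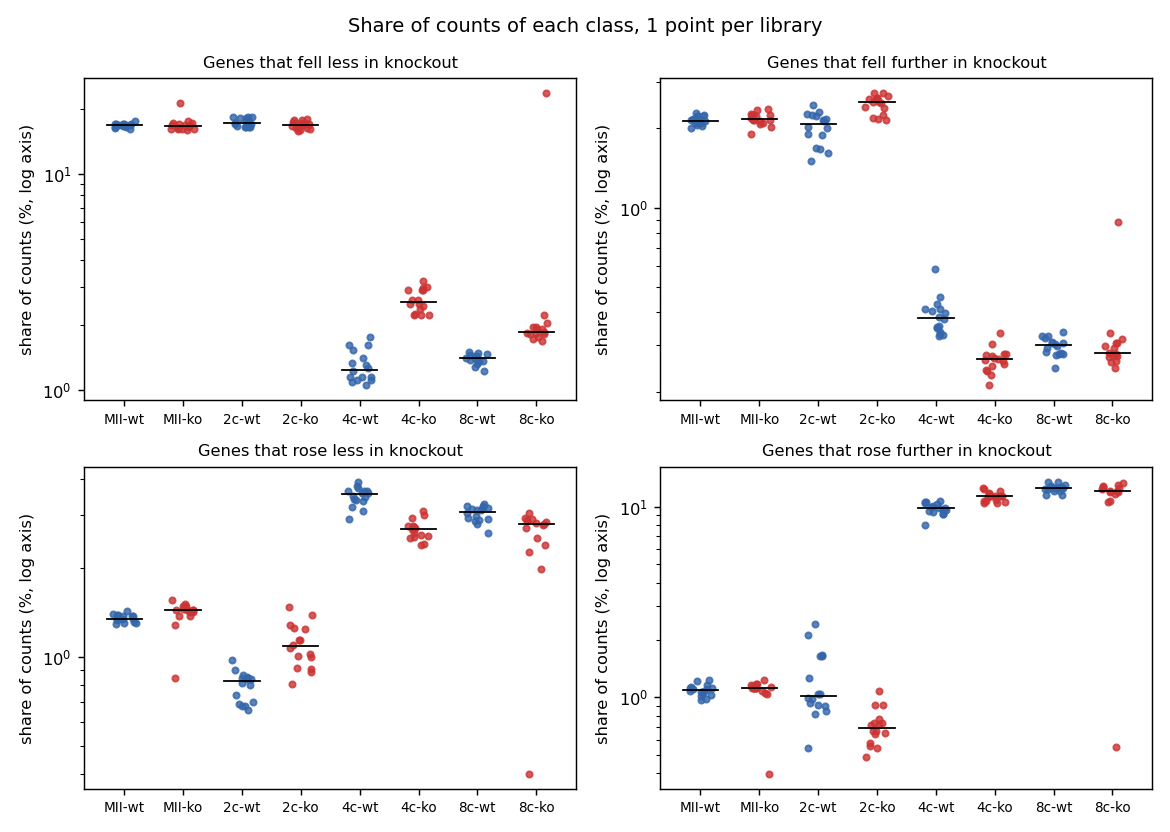
Share of each library's counts, in percent on a log axis, held by the genes that fell less, fell further, rose less or rose further in knockout embryos, 1 panel per group of genes and 1 point per library, in all 8 groups of the study, with a line at the median. In the 4-cell groups the genes that fell less lie at 1.05% to 1.77% in wildtype and 2.22% to 3.21% in knockout embryos, and 8-cell knockout replicate 7 lies at 23.7%.

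The 8-cell embryos and the oocytes were not used to choose the genes. Of the 673 genes, 312 had enough reads at the 8-cell stage without replicate 7, and 85 of them (27.2%, or 85 of all 673) were higher in knockout than in wildtype embryos, while over all genes tested 507 (6.94%) were higher and 396 (5.42%) lower. Wildtype fallers with no called interaction gave 126 of 1337 (9.42%). A gene that passed the read filter through the knockout libraries alone had to differ, so these shares describe only the genes that passed. With replicate 7 included, 172 of 310 were higher, against 617 (8.55%) higher and 218 (3.02%) lower over all genes. The share of counts of the 673 genes was 1.22% to 1.51% in 8-cell wildtype embryos and 1.69% to 2.23% in the other 14 knockout embryos, without overlap, and 23.7% in replicate 7. All 4725 wildtype fallers did not overlap at that stage either, with 6.46% to 7.64% in wildtype and 7.82% to 9.49% in the same 14 knockout embryos. Naa30 had 8-cell medians of 25.3 CPM in wildtype and 41.9 CPM in knockout embryos, a difference of 0.85 (SE 0.17, adjusted p = 0.00112) without replicate 7 and of 3.43 with it. Arid2 had medians of 14.1 and 45.3 CPM, a difference of 1.75 (SE 0.26, adjusted p = 8.48e-05) without and 2.63 with it. Cul1 did not pass at the 8-cell stage without replicate 7, with a difference of 0.06 (adjusted p = 0.819), and stood at 1.61 with it.

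In MII oocytes, which carry only the maternal genotype, 51 of the 582 tested genes that later fell less were higher and 69 lower in knockout than in wildtype oocytes without replicate 15, and 36 and 45 of 580 with it. Over all genes 759 (9.80%) were higher and 758 (9.79%) lower without that library, and 405 (5.27%) and 514 (6.69%) with it, so these genes stood close to the background at that stage.

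The 153 genes that fell further declined by a median of 3.27 log2 units in wildtype and of 5.65 in knockout embryos, and all 153 passed the test for a fall in knockout embryos. Of them 115 differed between genotypes at the 4-cell stage alone, 13 at the 2-cell stage alone and 20 at neither, and 18 were higher in 2c-ko. Apip, an enzyme of methionine salvage, measured 106 to 499 CPM (median 215) in 2c-wt and 352 to 708 CPM (median 479) in 2c-ko. At the 4-cell stage it measured 23.2 to 170.0 CPM (median 52.4) in wildtype and 21.1 to 97.0 CPM (median 42.4) in knockout embryos. All 16 2c-ko embryos were above the 2c-wt median while the 4-cell groups overlapped widely, with an interaction of -1.41 (SE 0.26, adjusted p = 0.000154). Apip was already higher in knockout oocytes, by 0.75 (adjusted p = 4.13e-06) without replicate 15 and by 0.74 with it. Dph6, which acts in diphthamide synthesis, had medians of 316 and 565 CPM at the 2-cell stage and 68.9 and 44.3 CPM at the 4-cell stage (interaction -1.42, adjusted p = 0.000299). Commd2, a COMM domain protein, had medians of 240.4 and 335 CPM, then 116 and 80.0 CPM (interaction -1.08, adjusted p = 2.45e-05). Rac1, a small GTPase of the actin cytoskeleton, had an interaction of -0.69 (adjusted p = 0.00211). In the lowest genes single embryos set the value. Fam90a1a was at 0 in 14 of 16 4c-wt embryos and 15 of 16 4c-ko embryos, and Usp17lc and Usp17ld, deubiquitinases of a multi-copy family, were at 0 in 11 4c-wt embryos each, with 85.4% and 69.0% of non-zero counts not whole. Without 4c-wt replicate 7 the interaction of Fam90a1a was -0.38 (adjusted p = 0.926). Without 4c-wt replicate 11 that of Usp17ld was -0.46 (adjusted p = 0.703) and that of Usp17lc -0.39 (adjusted p = 0.753). Usp17lc was at 0.37 (adjusted p = 0.790) with limma-voom, and Fam90a1a at 1.43 (adjusted p = 0.501) with replicates 9 to 16 alone.

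The 156 genes that rose less gained a median of 2.27 log2 units in wildtype and of 1.07 in knockout embryos. In knockout embryos 82 of them still passed the test for a rise, 73 passed in neither direction and 1 fell. They differed at the 4-cell stage alone in 70 cases, at the 2-cell stage alone in 36, at both in opposite directions in 15 and at neither in 35. In all, 51 were higher in 2c-ko and 85 lower in 4c-ko. Fubp1, a DNA- and RNA-binding regulator of Myc, measured 12.6 to 51.9 CPM (median 35.0) in 2c-wt and 22.7 to 64.3 CPM (median 47.8) in 2c-ko. At the 4-cell stage it measured 95.5 to 382 CPM (median 188) in wildtype and 21.3 to 212 CPM (median 80.8) in knockout embryos. The 4-cell ranges overlapped and 14 of 16 4c-ko embryos were below the 4c-wt median. It rose by 2.48 log2 units in wildtype, its knockout change was 0.66, and the interaction was -1.82 (SE 0.27, adjusted p = 3.66e-06).

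Eri1, an exoribonuclease, had medians of 27.0 and 45.9 CPM at the 2-cell stage and 188 and 106 CPM at the 4-cell stage, wildtype first, with an interaction of -1.60 (adjusted p = 1.17e-05). Eif4h, a cofactor of the translation helicase eIF4A, rose from a median of 2.90 to 72.2 CPM in wildtype and from 5.50 to 42.6 CPM in knockout embryos (interaction -1.87, adjusted p = 5.88e-05), and all 16 4c-ko embryos were below the 4c-wt median. Sf3b1, the core of the branch-site recognition complex of the spliceosome, went from 294 to 1229 CPM in wildtype and from 495 to 887 CPM in knockout embryos by medians (interaction -1.09, adjusted p = 0.000127). Grpel1, a nucleotide exchange factor of the mitochondrial Hsp70, had an interaction of -1.20 (adjusted p = 5.08e-06). Rpl17, a large-subunit ribosomal protein, likewise had -1.20 (adjusted p = 1.18e-06), but 92.2% of its non-zero counts were not whole. Nup93, a nuclear pore scaffold, differed at the 2-cell stage, with medians of 26.1 and 61.3 CPM, more than at the 4-cell stage, with 89.9 and 86.9 CPM (interaction -1.43, adjusted p = 0.00427). At the 8-cell stage, without replicate 7, 31 of the 150 tested genes that rose less (20.7%) were lower in knockout embryos and 1 was higher. Over all genes 5.42% were lower, and of the wildtype risers with no called interaction 237 of 2619 (9.05%). With replicate 7 included, 20 were lower (13.3%) and 1 higher, against 3.02% of all genes lower. In oocytes, without replicate 15, 24 of the 114 tested (21.1%) were higher and 11 (9.65%) lower in knockout, against 9.80% and 9.79% of all genes and 12.2% and 7.83% of all wildtype risers. With replicate 15, 12 and 8 of 113 were, or 10.6% and 7.08%, against 5.27% and 6.69% of all genes.

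The 315 genes that rose further gained a median of 2.22 log2 units in wildtype and of 3.68 in knockout embryos, and all passed the test for a rise in knockout embryos. Here the difference lay mainly at the 2-cell stage: 199 differed at that stage alone, 56 at the 4-cell stage alone and 17 at both in opposite directions, with 218 lower in 2c-ko and 73 higher in 4c-ko. As above, these counts are a description and no separate test. In the wildtype oocyte 124 of the 315 (39.4%) were under 1 CPM, a share near the 37.8% of all wildtype risers. Their share of counts was 0.539% to 2.43% in 2c-wt and 0.488% to 1.08% in 2c-ko, with means of 1.23 ± 0.520% and 0.708 ± 0.153%, so the wildtype group was the more variable and the ranges overlapped. At the 4-cell stage the means were 9.79% and 11.3%. At the 8-cell stage, without replicate 7, 26 of 309 tested (8.41%) were higher and 25 (8.09%) lower, against 6.94% and 5.42% of all genes and 3.51% and 9.52% of all wildtype risers. With replicate 7 included, 4 were higher and 7 lower.

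Hmgb1, an abundant chromatin protein that bends DNA, measured 188 to 558 CPM (median 292) in 2c-wt and 171 to 258 CPM (median 203) in 2c-ko. At the 4-cell stage it measured 1599 to 2544 CPM (median 1995) in wildtype and 2385 to 3536 CPM (median 2765) in knockout embryos. All 16 knockout embryos were below the wildtype median at the 2-cell stage and above it at the 4-cell stage, although the ranges overlapped at both stages. The interaction was 1.09 (SE 0.14, adjusted p = 5.46e-07), and 98.4% of the non-zero library values of Hmgb1 were not whole. Hmgb1 was already lower in knockout oocytes, with a difference of -0.44 (adjusted p = 1.68e-05) without replicate 15 and -0.45 with it. Sumo2, a ubiquitin-like modifier, had medians of 41.1 and 16.0 CPM at the 2-cell stage and 2159 and 2233 CPM at the 4-cell stage, an interaction of 1.68 (adjusted p = 1.66e-05). None of its non-zero library values was whole.

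Transcription factors of the Obox family, homeobox genes active at genome activation, were among the genes that rose further. Obox8 had medians of 34.7 CPM in 2c-wt and 15.02 CPM in 2c-ko, then 1331 and 1897 CPM (interaction 2.02, SE 0.44, adjusted p = 0.00102). Obox6 had medians of 124 and 66.9 CPM, then 1981 and 2167 CPM (interaction 1.52, SE 0.34, adjusted p = 0.00115), with 89.1% of its non-zero library values not whole. Kdm4c, another histone H3 lysine 9 demethylase of the same family as Kdm4a, had medians of 13.4 and 7.84 CPM at the 2-cell stage and 137 and 188 CPM at the 4-cell stage (interaction 1.78, SE 0.37, adjusted p = 0.000613). Its genotype difference passed at the 2-cell stage but not at the 4-cell stage. Ubtf, the RNA polymerase I upstream binding factor, had medians of 8.18 and 1.37 CPM, then 56.3 and 58.7 CPM (interaction 2.15, SE 0.45, adjusted p = 0.000647). In contrast Ube2e3, a ubiquitin-conjugating enzyme, was alike at the 2-cell stage, with medians of 124 and 114 CPM, and differed at the 4-cell stage, with 521 and 986 CPM (interaction 1.20, SE 0.21, adjusted p = 7.04e-05).

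**Figure D3:**
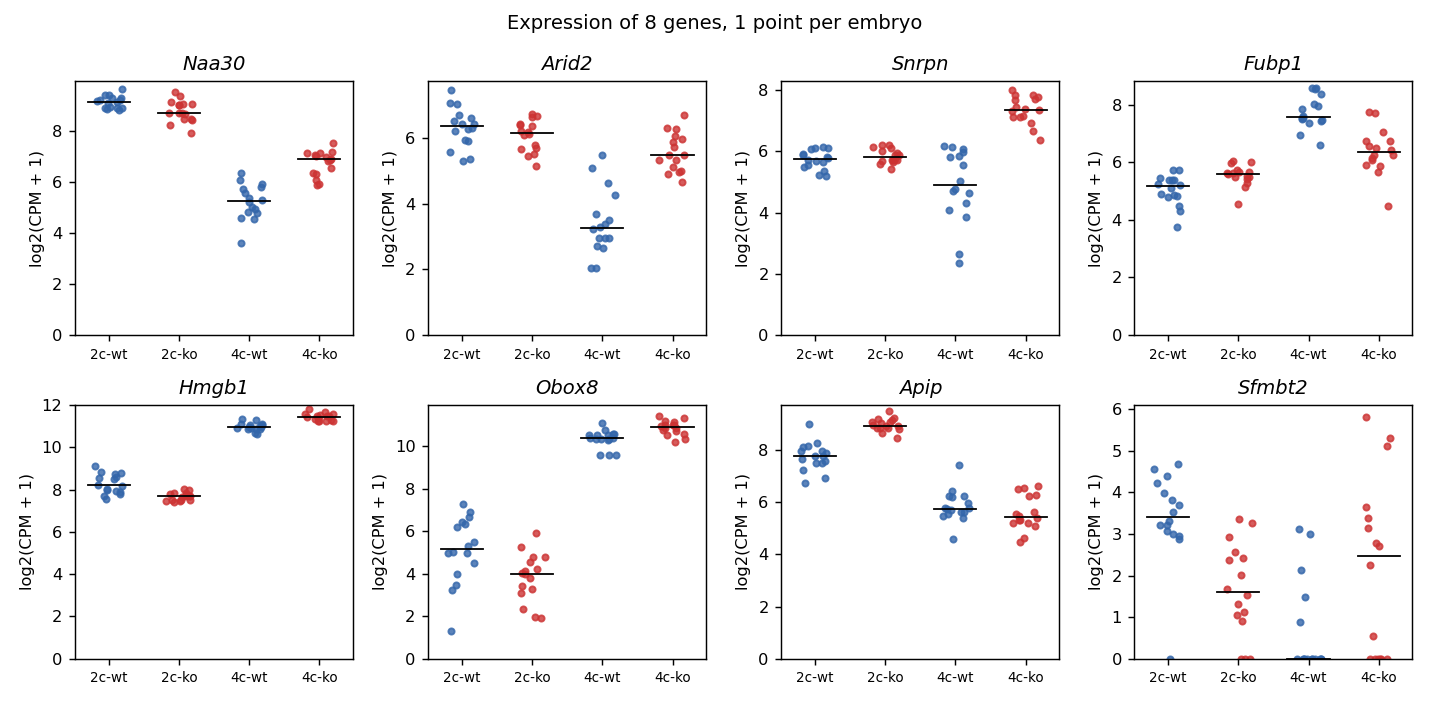
Levels of Naa30, Arid2, Snrpn, Fubp1, Hmgb1, Obox8, Apip and Sfmbt2 as log2(CPM + 1), 1 point per embryo and a line at the median, in 2c-wt, 2c-ko, 4c-wt and 4c-ko. The 4-cell genotypes do not overlap for Snrpn and overlap for Naa30, with medians of 37.5 and 119 CPM, and at the 2-cell stage they overlap for Apip, with medians of 215 and 479 CPM.

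Genes without a large wildtype change also differed. Snrpn, an imprinted gene for a small nuclear ribonucleoprotein, measured 35.3 to 70.0 CPM (median 53.1) in 2c-wt, 41.7 to 72.5 CPM (median 54.7) in 2c-ko, 4.14 to 71.3 CPM (median 29.2) in 4c-wt and 82.4 to 256 CPM (median 162) in 4c-ko. The 4-cell groups did not overlap. The interaction was 2.07 (SE 0.31, adjusted p = 3.66e-06); Snrpn overlaps Snhg14, and without a stated strand setting their reads cannot be told apart. Its 8-cell difference did not pass the threshold (0.11, adjusted p = 0.681, without replicate 7). Nckap1, a component of the actin-regulating WAVE complex, had medians of 187 and 184 CPM at the 2-cell stage and 137 and 328 CPM at the 4-cell stage (interaction 1.31, adjusted p = 1.18e-06), and stayed higher in knockout embryos at the 8-cell stage by 0.97 (SE 0.16, adjusted p = 0.000277) without replicate 7. In the other direction Med21, a Mediator subunit, had medians of 582 and 897 CPM, then 439 and 237 CPM (interaction -1.38, adjusted p = 4.72e-05). Eif2b1, a subunit of the exchange factor eIF2B, had medians of 538 and 739.6 CPM, then 947 and 745 CPM (interaction -0.85, adjusted p = 5.57e-05).

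Lists of genes with a shared role, drawn up with earlier results of these data known, were described by their counts of called members beside the background of 11.4% called above and 4.03% called below 0. Ubiquitin-conjugating enzymes and cullins had 12 of 45 tested members called above 0 and 3 called below, with a list median interaction of 0.07. The 12 include Cul1, Ube2q2 (1.69), Ube2a (1.39), Ube2r2 (2.28) and Cul3 (1.38), and Ube2t (-1.05) and Cul4b (-0.86) were called below 0. Maternal-effect and oocyte genes had 6 of 43 called above 0, all of which fell less: Nlrp9c, Nlrp4c (2.37), Btg4 (1.18) and Oosp1, Oosp2 and Oosp3 (1.87, 1.72 and 1.93). Of the 43 tested, 37 were wildtype fallers, and 14.2% of all wildtype fallers were called above 0, a share close to that of this list. The list median was 0.06, against 0.20 over all genes tested. Padi6, a component of the subcortical maternal complex, fell further (-1.05), and Dppa3, which protects the maternal genome from demethylation, was at -0.46.

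Factors of mRNA decay had 6 of 39 called above 0. Dcp2, the decapping enzyme (1.06), Cnot6l (1.47) and Cnot6 (1.20), deadenylase subunits of CCR4-NOT, and Btg4, the CCR4-NOT adaptor for maternal mRNA, fell less, and Cnot2 (0.89) and Pum2 (0.79) were called above 0 without a large wildtype change. Cnot11 (-1.26) fell further. Histone methylation enzymes and partners had 7 of 37 called above 0, with Kdm4c, Suz12 (0.85), Kmt2d (1.55), Setd2 (0.78), Ash2l, Kdm3a (1.06) and Kdm5b, and Rbbp5 (-1.38) below it. Transcription factors of early development had 8 of 39 called above 0, among them Yy1 (1.67), Klf5 (1.71) and Myc (1.95), while Nfya, a CCAAT-binding subunit, was at -2.03.

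Cytosolic ribosomal proteins, all 77 of which rose in wildtype embryos, had 12 called above 0, including Rpl38 (1.21) and Rps19 (1.37), and 3 called below, Rpl17, Rps15a (-0.97) and Rps2 (-0.62), with a list median of 0.34. Splicing factors had 7 called above and 6 below of 56, with a list median of 0.04. The 7 are Snrpn, Tra2a (1.47), Tra2b (1.06), Cdc5l (0.87), Srsf2 (0.93), Srsf5 (0.61) and Srsf7 (1.18). The 6 are Sf3b1, Sf3a1 (-1.38), Sf3a3 (-0.64), Snrnp40 (-1.26), Crnkl1 (-1.01) and Snrpb2 (-0.54). Spindle and segregation genes had 6 called above and 8 below of 50, and the 8 include Birc5 (-0.71), Ccnb1 (-0.77), Cdc20 (-1.12), Aurka (-0.92) and Bub3 (-0.93). Called above 0 were Bub1 (0.98), Cenpa (0.96), Cdc25c (1.38), Wee2 (1.815), Stag2 (0.74) and Rad21 (0.54). Nuclear pore genes had 2 called above and 5 below of 51, translation initiation factors 4 and 3 of 46, ribosome biogenesis factors 2 and 3 of 58, and proteasome subunits 2 and 3 of 44. Mitochondrially encoded genes had 4 of 15 called above 0, mt-Nd6, mt-Rnr1, mt-Nd4l and mt-Nd5, beside the lower mitochondrial share in 2c-ko given above. The part of that share in these values was not tested. Leaving out 2c-wt replicate 3 alone put mt-Nd6 (adjusted p = 0.0503) and mt-Rnr1 (adjusted p = 0.0517) past the threshold of 0.05, and mt-Rnr1 did not pass with limma-voom (adjusted p = 0.0741).

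Imprinted genes had 6 of 26 tested members called above 0 and a list median of 0.73: Snrpn, Sfmbt2 (4.95), Gnas (2.21), Snhg14 (2.31), Ube3a (1.16) and Jade1 (2.75). Reads of Snrpn and Snhg14 cannot be told apart, as said above, so these may not be separate calls. Mest (-1.56) was called below 0. Sfmbt2, a Polycomb-related gene expressed from the paternal allele, measured 0 to 24.7 CPM (median 9.65) in 2c-wt and 0 to 9.17 CPM (median 2.04) in 2c-ko. In 4c-wt it measured 0 to 7.68 CPM and was at 0 in 11 of 16 embryos, and in 4c-ko 0 to 55.2 CPM with a median of 4.64. The groups overlapped at both stages. It is 1 of 9 genes that passed the test in opposite directions in the genotypes, falling by 3.51 log2 units in wildtype and rising by 1.44 in knockout embryos (interaction SE 0.98, adjusted p = 0.000318).

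**Figure D4:**
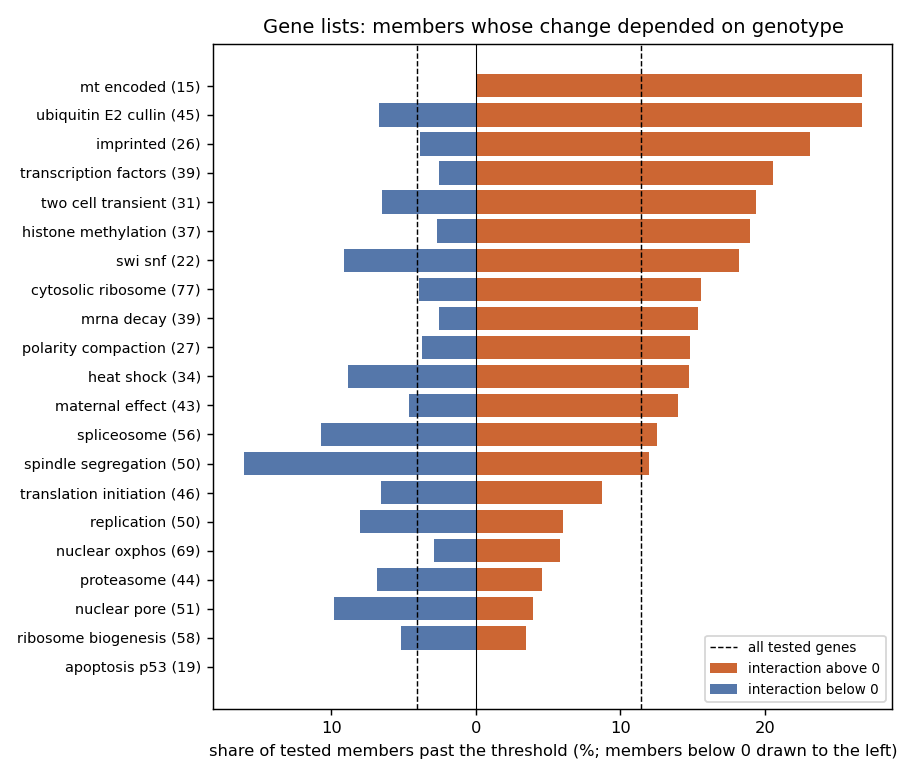
Percent of the tested members of each list called in the interaction, above 0 to the right and below 0 to the left, for lists with at least 15 tested members, with dashed lines for all tested genes at 11.4% and 4.03%. Ubiquitin-conjugating enzymes and cullins reach 12 of 45 to the right, and spindle and segregation genes 8 of 50 to the left.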

How the data were processed

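Single-embryo libraries were prepared with a SMART-Seq kit and Nextera XT and sequenced as paired-end reads of 150 bases, per the labels' protocols. Reads were processed with Trimmomatic 0.32, STAR 2.5.1a and featureCounts 1.5.1 on mm10, per the submitters' processing notes. Whether counting used strand was not stated in the labels or notes. The deposited table holds estimated counts per gene, since 30.56% of its non-zero values are not whole, as from reads shared between loci. They were rounded to whole numbers for testing. CPM values were computed here from the deposited counts as counts scaled by the library total. A minimum of 100000 counts per library excluded 8-cell knockout replicate 4, which had 419. No replicate pair agreed within sampling noise.

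The 4 groups were fitted together in edgeR 4.0.16 (R 4.3.3) with trimmed mean of M-values factors, filtering by expression, and robust quasi-likelihood F tests, with Benjamini-Hochberg adjustment over all 10766 genes tested. A gene was called at an adjusted p under 0.05, and for a stage change the log2 fold change also had to reach 1 in either direction. The 8-cell and oocyte genotypes were fitted separately. The procedure was tested on simulated data. Named genes were Kdm4a, per class the 4 with the largest interaction and the 4 with the smallest p, and 3 each way outside the classes. Except for Kdm4a, these were called genes with a group mean of at least 20 CPM and no provisional name. Up to 2 called members per gene list were added without these limits, or the most abundant member where none was called. Other genes were named after their values were seen, as members of a list. Members and lists were chosen with earlier results of these data known. Alternatives used DESeq2 1.42.0, limma 3.58.1, other factors, filters, covariates and subsets of libraries. The settings without 8-cell knockout replicate 7 and without knockout oocyte replicate 15 were chosen after seeing the data. Permutation tests, summaries and figures used Python 3.11.15 with scipy 1.17.1, numpy 2.4.6, matplotlib 3.10.9 and pandas 2.3.3. Promoters came from RefSeq on GRCm38.p6. The planned comparison of motif shares between classes was void, because only 7069 of the 10766 tested genes had a promoter entry.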

Additional observations from a re-analysis of the deposited data

Results flagged for a closer look

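The change from the 2-cell to the 4-cell stage differed between genotypes by the test of the difference itself for 1231 genes called above 0 and 434 called below 0. In 9 genes the change passed the test in opposite directions in wildtype and knockout embryos. Mir22hg, a microRNA host transcript, rose in wildtype and fell in knockout embryos, with an interaction of -2.56. The other 8 fell in wildtype and rose in knockout embryos. Among them are Cyp2c44, a cytochrome P450, with 3.81, Sfmbt2 with 4.95, Jade1, a subunit of a histone acetyltransferase complex, with 2.75, Efna1, an ephrin ligand, with 2.73, and Trap1a with 2.49. The unnamed loci RP23-383B20.1, RP23-105K2.3 and RP23-74N13.2 had interactions of 2.40, 2.73 and 2.60. Within the 4 groups, single outlying libraries were looked for only by leaving out each library in turn.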

How the results depend on the processing

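Leaving out each of the 64 libraries in turn gave 1061 to 1323 genes called above 0 and 386 to 482 below, 584 to 761 that fell less, 139 to 172 that fell further, 138 to 191 that rose less and 264 to 379 that rose further; wildtype changes gave 3288 to 3534 higher and 4612 to 4772 lower, and knockout changes 3531 to 3722 and 4461 to 4623. Of the called genes 73.9% were above 0, and the counts above and below were 1223 and 614 with DESeq2, 1157 and 428 with limma-voom, 1039 and 506 with relative log expression factors, 1316 and 404 with total counts and 940 and 465 with all 8 groups in one fit. Replicate numbers do not pair the embryos: same-numbered libraries correlated with medians of -0.02 to 0.03 between groups, and at most 2 of 16 pairs were over 0.1. With the replicate block 1023 genes were called above and 353 below 0, and 100 fell further. Genes that fell further numbered 90 with limma-voom. Replicates 1 to 8 alone gave 401 called above, 236 below, 178 fell less, 84 fell further, 84 rose less and 135 rose further; replicates 9 to 16 alone gave 284, 45, 224, 8, 21 and 31. The cause of the difference between these subsets was not tested. With no filter on low counts wildtype changes were 5433 higher and 11471 lower and knockout changes 5598 and 10822, over more genes tested. With a wildtype change of at least 2 log2 units, 87 rose less and 178 further. With the direction from odd-numbered wildtype libraries 347 fell less, 69 fell further and 96 rose less; from even-numbered ones 226, 52 and 45, with 72 rising further, each with fewer embryos. Of the genes called in the interaction, 210 were higher and 39 lower in knockout embryos at the 8-cell stage, and 391 higher with no filter, 63 lower with DESeq2, and 159 and 77 without replicate 7; in oocytes 85 and 88, and 139 and 132 without replicate 15. Usp17lc reversed to 0.37 with limma-voom and Fam90a1a to 1.43 with replicates 9 to 16. Counting error and amplification limit the genes near 1 CPM.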

Other observations

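All 3283 genes that rose in wildtype embryos already held, in sum, 7.16% to 13.9% of the counts in 2c-wt and 7.52% to 9.52% in 2c-ko, with means of 9.60 ± 1.85% and 8.61 ± 0.463% (SD, n = 16). Wildtype embryos thus spanned a wider range of this share than knockout embryos at the 2-cell stage, and the groups overlapped. For the 315 genes that rose further, the 2-cell means were 1.32% in wildtype and 0.619% in knockout embryos over replicates 1 to 8, and 1.15% and 0.798% over replicates 9 to 16. For the 673 genes that fell less, the 4-cell means were 1.36% and 2.51% over replicates 1 to 8, and 1.26% and 2.74% over replicates 9 to 16. Both sets of genes were chosen for such differences on all of these libraries together, so the subsets of replicates are no separate check of them.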
